A study of Rattus norvegicus with 16 samples.

Results

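Glomeruli of rats injured with puromycin aminonucleoside (PAN) and treated with pioglitazone were compared with glomeruli of rats given PAN and no drug. The comparison takes in 8 of the 16 rats of the series: the 4 labelled PAN plus pioglitazone and the 4 labelled PAN. Members were taken by these group labels alone, with no measured value used, and all 13222 genes of the deposited table were compared. All animals were male Wistar rats of about 175 g. PAN was injected into a vein, pioglitazone, GQ-16 or a sham vehicle was given by gavage each day, and on day 11 the kidneys were passed through sieves to collect glomeruli. The other two groups, healthy controls and PAN plus GQ-16, had 4 rats each. They enter the limma fit, where they share in the estimate of the spread, and their levels and their own limma comparisons are set beside the main one. Every rat of the pioglitazone, GQ-16 and PAN groups carried the PAN injury, so no effect of the drug on healthy glomeruli was measured. The labels give no dose, litter, RNA extraction batch or pairing, and p-values below measure the spread between animals that the labels list as separate samples.

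The glomerulus is the filter of the kidney. Its capillary wall is made of fenestrated endothelium, a basement membrane and podocytes, epithelial cells with interlocking foot processes, and its capillary loops are held by mesangial cells. PAN is a podocyte toxin that makes rats lose protein into the urine, a standard model of nephrotic syndrome, and injured podocytes are known to take up desmin, an intermediate filament protein of muscle. Pioglitazone is a thiazolidinedione, an agonist of the nuclear receptor PPARγ, which binds DNA as a dimer with the retinoid X receptor and is best known for switching on genes of lipid storage and use in adipocytes. GQ-16 is another PPARγ ligand. Thiazolidinediones are used against diabetes, and fluid retention through sodium transport in the distal nephron is a known side effect.

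Levels are given as scaled CPM, reads scaled to the library total (CPM) and then set, in each library, to a common median gene of 26.2 CPM. Differences are pioglitazone minus PAN on the log2 scale, from limma, with the Benjamini-Hochberg adjustment over all genes. Means carry the SD over 4 rats. Libraries held 13351137 to 21977663 reads across the series. Mitochondrially encoded transcripts took 14% ± 4.47 of the reads in the pioglitazone rats and 9.07% ± 2.19 in the PAN rats (two-sided exact permutation test, p = 0.114, where the smallest p that 4 against 4 rats allows is 0.0286). Column medians before centring were 4.75 and 4.85 log2 CPM (exact permutation p = 0.0857). PAN rat 1 stood apart from the other PAN rats in several gene groups, and pioglitazone rat 1 stood apart in others. Sample titles carry a number, 25 or higher in 3 of the 4 PAN rats and 1 of the 4 pioglitazone rats and 15 or lower in the others, and what it stands for is not given in the sources used here. Within 15 or lower the only PAN rat is PAN rat 4, and within 25 or higher the only pioglitazone rat is pioglitazone rat 4.

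No gene passed an adjusted p of 0.05 in limma, and the smallest adjusted p was 0.759. At an unadjusted p under 0.05 there were 763 genes (5.77% of those tested), and leaving out single rats moved this to between 253 (without pioglitazone rat 1) and 1422 (without pioglitazone rat 3). Of these, 417 were higher with pioglitazone (3.15% of the genes tested) and 346 were lower (2.62%). Without centring the split was 70 higher against 395 lower, with the median gene then at a difference of −0.10. It was 285 against 434 with median-ratio scaling, 307 against 515 with voom on recovered reads and 522 against 675 with a term for the number in the sample titles. With only the 8 rats compared it was 292 against 300, without PAN rat 2 280 against 346 and without PAN rat 4 324 against 434. The direction of the split was therefore not stable across scalings, fits and left-out rats. The 4 values of one group lay wholly above or below the 4 values of the other for 400 genes (3.03%), 259 of them higher with pioglitazone (1.96%) and 141 lower (1.07%). Differences were small for most genes, with a median size of 0.12 and a median standard error of 0.15.

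The genes furthest from 0 were mostly lower with pioglitazone. A difference beyond 1 on the log2 scale was found for 75 lower and 12 higher of the 13222 genes. Among genes without overlap between the groups it was found for 19 lower and 3 higher. Without PAN rat 1, C4b moved from −1.79 to −0.79 and Pdk4 from −1.02 to −0.43. Other lower genes stayed beyond 1 in size, such as Sstr3 (−1.86) and Adamts14 (−1.32). The counts were not made without that rat. By the naming rule, the 12 genes with the smallest p in each direction were taken among those whose 8 rats did not overlap and averaged 5 CPM or more. The 12 lower genes differed by 0.35 to 1.82 in size (median 0.84), and the 12 higher genes by 0.19 to 1.41 (median 0.30). All of them kept their sign when rats with title numbers of 15 or lower and of 25 or higher were compared separately. Since the genes were chosen by this contrast, these counts describe them and test nothing.

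Sstr3 (ENSRNOG00000007332), a receptor for the inhibitory peptide somatostatin, had the smallest p of all genes. Its level was 18.1, 18.0, 21.9 and 21.4 scaled CPM in the 4 PAN rats and 3.74, 6.37, 3.58 and 11.6 in the 4 pioglitazone rats. The lowest PAN rat was thus well above the highest pioglitazone rat, number 4, and the means were 19.8 ± 2.10 and 6.32 ± 3.73. The difference was −1.82 (SE 0.33, limma adjusted p = 0.759). It was −2.17 without pioglitazone rat 4, and there Sstr3 was the only gene of the table to pass adjustment (limma adjusted p = 0.0195). Among rats with title numbers of 25 or higher, where pioglitazone rat 4 is the only pioglitazone rat, it was −0.73. Controls held 2.31 to 3.65 scaled CPM.

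Adamts14 (ENSRNOG00000000563), a metalloproteinase that trims the ends of fibrillar procollagens, stood at 51.7, 27.4, 27.4 and 23.9 scaled CPM in the PAN rats. In the pioglitazone rats it stood at 8.23, 12.2, 8.28 and 14.6, below every PAN rat. The difference was −1.56 (SE 0.34, limma adjusted p = 0.759), and −1.32 without PAN rat 1. Controls were at 1.81 to 2.63, so the pioglitazone rats lay between the healthy and the untreated injured rats.

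Aebp1 (ENSRNOG00000013720), a secreted protein that binds fibrillar collagen, differed from the genes above in its healthy level. It measured 141, 74.5, 56.5 and 112 scaled CPM with PAN and 34.5, 40.3, 51.3 and 34.7 with pioglitazone. The PAN rats spread widely but did not overlap the pioglitazone rats (difference −1.19, SE 0.23, limma adjusted p = 0.759). Controls, at 71.6 to 104, overlapped the PAN rats, and the pioglitazone rats were below them (pioglitazone minus control −1.19, limma adjusted p = 0.0191).

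The other lower genes by the rule had varied roles. Lilrb3, an inhibitory receptor of myeloid cells, averaged 27 ± 9.94 scaled CPM with PAN and 9.41 ± 3.35 with pioglitazone (difference −1.51). Ikbke, a kinase of the innate immune response, averaged 23.3 ± 3.18 and 16.1 ± 2.52 (−0.54). Cstb, an inhibitor of lysosomal cathepsins, had 53.9, 55.5, 55.0 and 64.3 against 37.2, 46.4, 41.4 and 45.3 (−0.43, SE 0.09). Its groups were narrow and separate, with a gap between 46.4 and 53.9. Adap2 differed by −0.66, Ghdc by −0.54, Ccdc57 by −0.40 and Coq10a, which handles coenzyme Q in mitochondria, by −0.35. Among title numbers of 25 or higher these 4 were at −0.20, −0.34, −0.36 and −0.205. Cpt1b and Ldb3 complete the 12 and are described with their groups below.

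**Figure D1:**
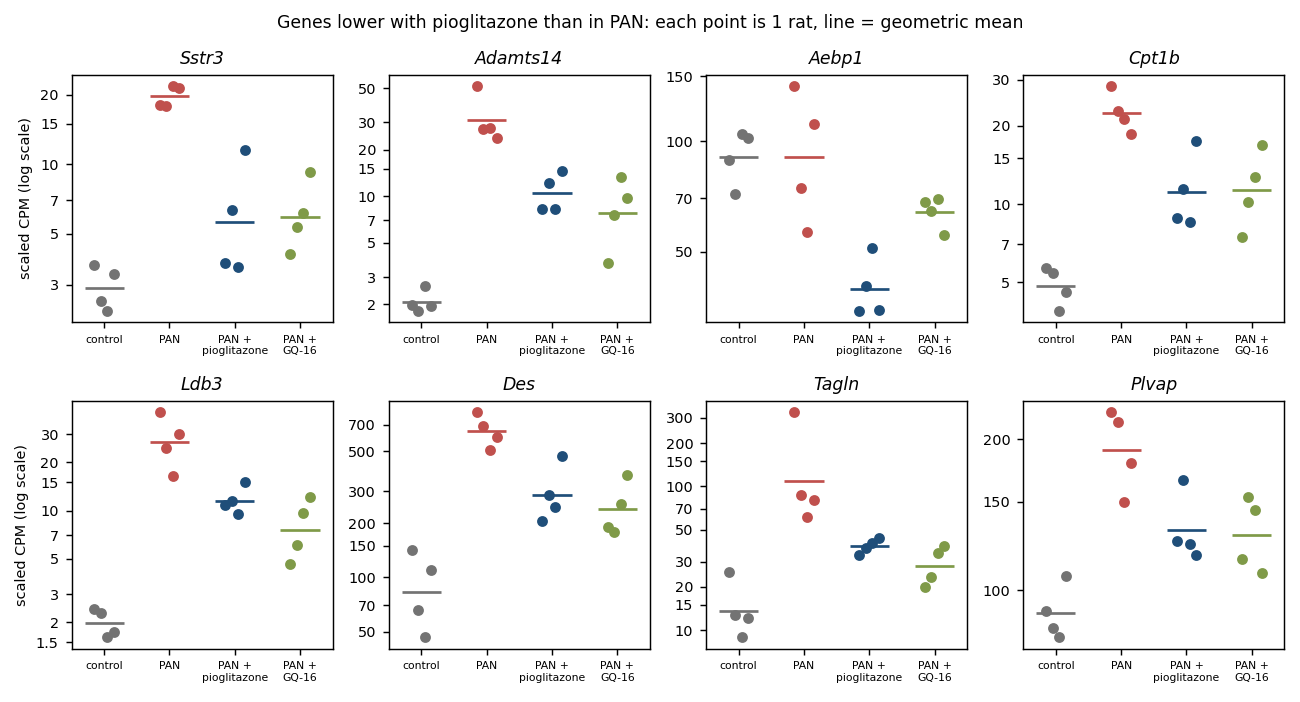
Scaled CPM (log axis) of 8 genes that were lower with pioglitazone, in each rat of the 4 groups; points are rats and lines are geometric means. In all panels but Plvap the 4 PAN rats lie above the 4 pioglitazone rats, and for Plvap the ranges are 150 to 226 and 118 to 166.

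On the higher side, Padi2 had the largest difference of the 12. Padi2 (ENSRNOG00000007574), an enzyme that turns arginine in proteins into citrulline, measured 2.48, 3.65, 4.47 and 2.90 scaled CPM in PAN rats and 5.74, 14.5, 8.93 and 7.97 in pioglitazone rats. No rats overlapped (difference 1.41, SE 0.46, limma adjusted p = 0.759), but controls ran from 2.18 to 9.11, across both groups. Cd200 (ENSRNOG00000002141), a surface protein that restrains myeloid cells, measured 221, 285, 304 and 268 against 537, 396, 324 and 358. Pioglitazone rat 1 was the highest of the 8 and rat 3 exceeded the top PAN rat by little (difference 0.57, SE 0.18, limma adjusted p = 0.759).

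Pggt1b, a subunit of the enzyme that attaches geranylgeranyl groups to small GTPases, had the smallest p on this side (limma adjusted p = 0.759). It was at 12.5, 14.7, 17.5 and 14.5 scaled CPM with PAN and 20.5, 20.2, 18.3 and 19.8 with pioglitazone, a difference of 0.42 (SE 0.10). The pioglitazone values fell within 18.3 to 20.5, and those of controls within 19.1 to 20.4. Dgke, a diacylglycerol kinase whose loss causes a glomerular thrombotic disease, averaged 12.5 ± 1.41 and 17.7 ± 3.10 (0.50, SE 0.16). Nr2c2, a nuclear receptor also called testicular receptor 4, averaged 31.6 ± 3.0 and 40.6 ± 2.94 (0.36). The remaining genes had smaller differences: 0.31 for Fam135a, 0.29 for Pms1, a mismatch repair protein, 0.29 for RGD1563365, 0.28 for Klhl9, 0.26 for Pafah1b2, 0.25 for Dcaf1 and 0.19 for Sec23b, a coat protein of vesicles leaving the endoplasmic reticulum.

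**Figure D2:**
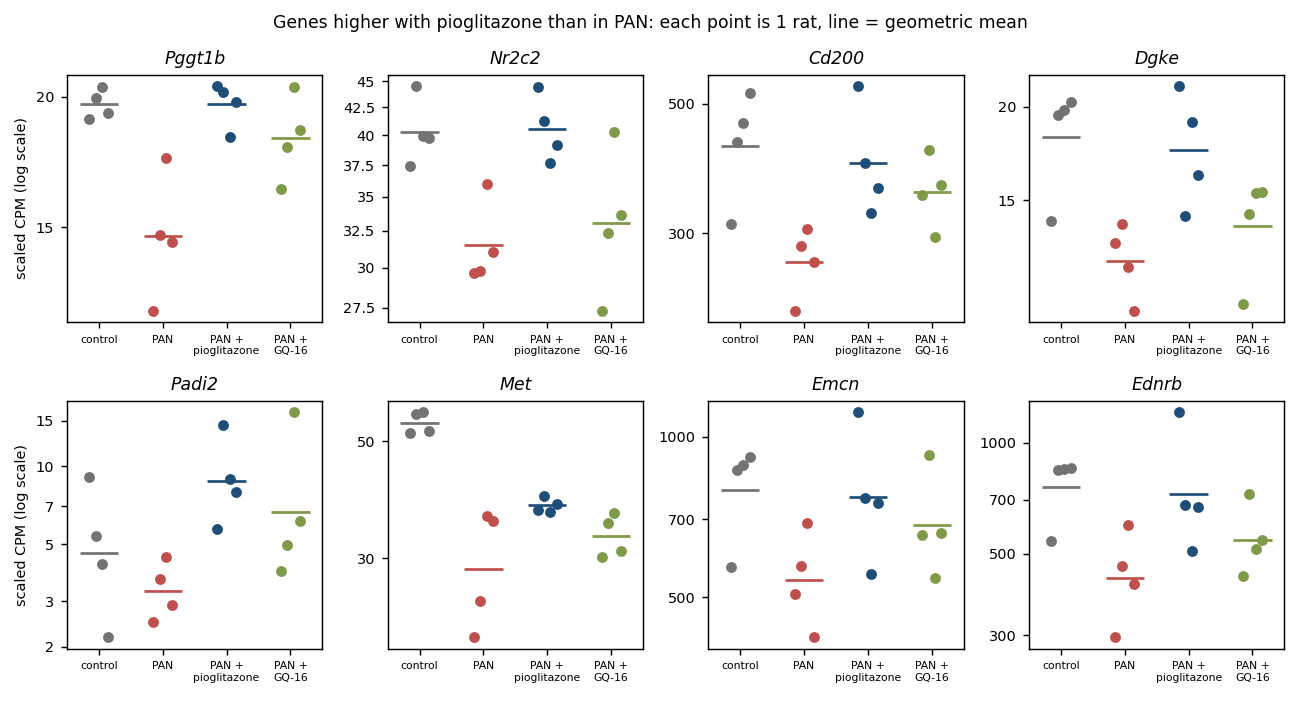
Scaled CPM (log axis) of 8 genes that were higher with pioglitazone, in each rat of the 4 groups; points are rats and lines are geometric means. The PAN and pioglitazone rats do not overlap for Pggt1b, Nr2c2, Cd200, Dgke, Padi2 and Met, while for Emcn and Ednrb pioglitazone rat 3 lies inside the PAN range.

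Against healthy controls, 6.36% of all genes were higher and 1.78% lower in PAN rats at an adjusted p under 0.05 in limma. In pioglitazone rats 2.56% were higher and 0.741% lower than in controls. Among the 12 lower genes, 7 had passed that test as higher in PAN: Sstr3 (2.76), Adamts14 (3.90), Ikbke (0.55), Cpt1b (2.21), Ldb3 (3.75), Coq10a (0.44) and Adap2 (0.91). Among the 12 higher genes, 4 had passed it as lower in PAN: Pggt1b (−0.42), Fam135a (−0.56), Dgke (−0.55) and Cd200 (−0.66). Both comparisons use the same PAN rats, so the match of directions is not counted as support.

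Gene lists were described next, each by the median difference of its measured genes and by how many reached an unadjusted p under 0.05. The median over all genes was 0.01, with 51.6% of genes above 0. Of the 47 lists, 27 had a median within 0.1 of 0. The list medians of greatest size were −0.71 for striated muscle genes, −0.53 for interstitial collagens, −0.46 for complement and −0.36 for the cell cycle on the lower side. On the higher side they were 0.79 for red blood cell markers, 0.77 for mitochondrially encoded genes and 0.37 for glomerular endothelial markers. Without PAN rat 1 the median of interstitial collagens was −0.15, that of complement −0.20 and that of red blood cell markers 0.28. Macrophage markers, at −0.35 with all rats, were then at −0.02. In bulk glomeruli, fewer cells of a type and less RNA per cell cannot be told apart.

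**Figure D3:**
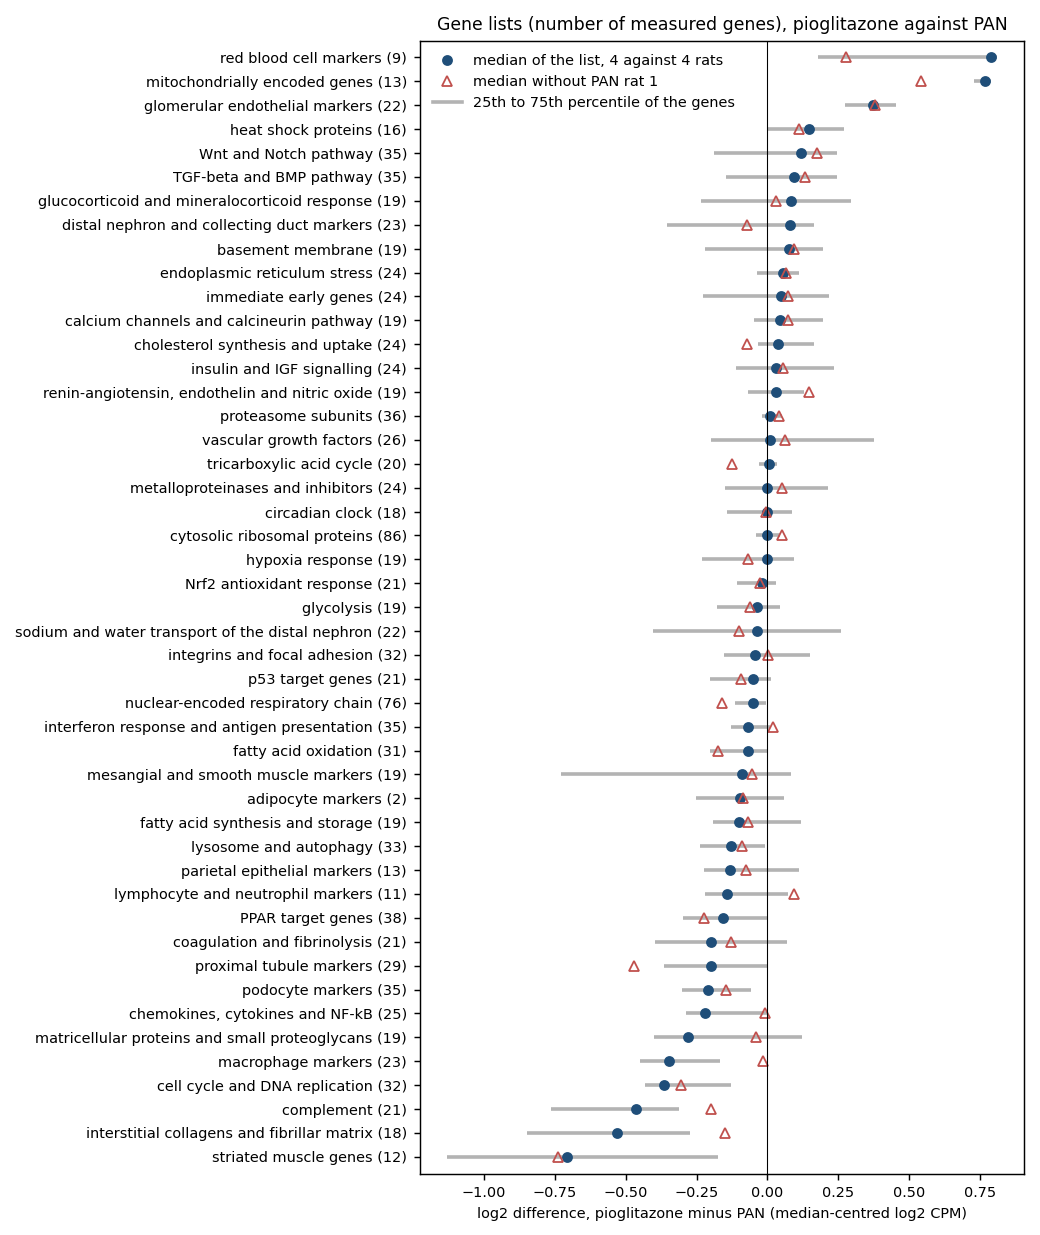
Median log2 difference (pioglitazone minus PAN) of each of 47 gene lists, with the number of measured genes in parentheses; filled circles use all 8 rats, grey bars run from the 25th to the 75th percentile of the genes and open triangles leave out PAN rat 1. Triangles for interstitial collagens, complement and macrophage markers lie much nearer 0 than their circles, while those for glomerular endothelial markers and striated muscle genes stay beside them.

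Genes that PPAR receptors are known to switch on were the first list examined, since the drug's receptor belongs to that family. The list is of PPAR targets in general and was not split by receptor. PPAR dimers bind a direct repeat of the half-site AGGTCA with 1 base between the repeats. A search of both strands of the RefSeq promoter windows (GRCr8, 250 bases before to 50 after the gene start) found the half-site in 6 of the 29 measured PPAR list genes that had a window (20.7%), against 15.7% of 27457 windows of all genes. That direct repeat was found in 0 of the 29 and in 0.0583% of all windows. The upstream parts of the windows of Cat and Pck1 are shown with the half-site in capitals, at chr3:110329527-110329776 on the minus strand and chr3:182348322-182348571 on the plus strand.
Cat: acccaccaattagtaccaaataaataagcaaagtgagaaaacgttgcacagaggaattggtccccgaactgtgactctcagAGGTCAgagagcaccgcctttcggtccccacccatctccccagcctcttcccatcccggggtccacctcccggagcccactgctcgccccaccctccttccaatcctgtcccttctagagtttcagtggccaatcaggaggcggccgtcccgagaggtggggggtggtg
Pck1: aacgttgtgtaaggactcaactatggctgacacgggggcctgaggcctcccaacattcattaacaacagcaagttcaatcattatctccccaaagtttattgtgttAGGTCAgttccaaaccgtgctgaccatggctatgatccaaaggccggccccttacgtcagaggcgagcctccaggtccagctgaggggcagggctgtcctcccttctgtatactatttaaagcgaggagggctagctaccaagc

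Both are examples from the 6 list genes with the half-site, and their groups overlapped. Cat, the peroxisomal catalase, averaged 293 scaled CPM with PAN and 314 with pioglitazone (difference 0.16, SE 0.29). Pck1, the gluconeogenic enzyme of proximal tubule and liver, averaged 1074 and 968 (0.00, SE 0.48). The others with the half-site differed by −0.46 (Cyp4a2, SE 0.37), −0.64 (Cyp4a3, SE 0.42), −0.18 (G0s2, SE 0.32) and 0.0028 (Slc27a1, SE 0.11).

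Over the 38 measured genes of the PPAR list, 10 were above and 28 below 0, with a median of −0.16. At an unadjusted p under 0.05, 0 were higher (3.15% of all genes) and 3 lower (2.62% of all genes): Cpt1b, Pdk4 and Abca1. Pparg itself and the adipocyte targets Fabp4, Cd36, Angptl4 and Adipoq are not reported singly here. Where measured, they stay in the fit and in any list that holds them. Per rat, the mean of the list relative to the 8 rats was 0.02, −0.06, −0.04 and 0.46 with PAN and −0.16, −0.07, 0.24 and −0.39 with pioglitazone. The groups overlapped, with PAN rat 4 the highest of the 8, and without it the median was −0.04, and −0.06 without pioglitazone rat 4. In the other direction, it was −0.34 with a term for title number. It was −0.50 among title numbers of 15 or lower, where PAN rat 4 is the only PAN rat. It was −0.31 among those of 25 or higher, where pioglitazone rat 4 is the only pioglitazone rat. PAN rat 4 was also the highest for proximal tubule markers, at 1.03, where pioglitazone rat 4 was at −0.67 and PAN rat 1 at −0.76. The part of tubule content in the list's values was not tested.

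Cpt1b (ENSRNOG00000010438), the muscle form of the enzyme that admits long-chain fatty acids to mitochondria, was the list's clearest member. It stood at 28.5, 22.8, 21.1 and 18.6 scaled CPM with PAN and 8.87, 11.5, 8.53 and 17.5 with pioglitazone. Pioglitazone rat 4 came close to the lowest PAN rat, and the others were well apart (difference −1.02, SE 0.26, limma adjusted p = 0.759, and −0.45 among title numbers of 25 or higher). The liver form, Cpt1a, differed by −0.04 (SE 0.10).

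Pdk4, a kinase that turns mitochondria from glucose to fatty acid use, measured 31.2, 5.62, 5.77 and 7.31 against 5.4, 3.75, 4.88 and 4.48 scaled CPM. The groups were separate by a narrow gap, and PAN rat 1 was far above all others. The difference of −1.02 (SE 0.45) was −0.43 without PAN rat 1. Abca1, which exports cholesterol from cells, averaged 64.2 ± 36.4 and 32.5 ± 2.70 (−0.82, SE 0.33), and −0.49 without PAN rat 1.

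Other targets on the list lay near 0 or were uncertain. Plin2, a lipid droplet coat protein, differed by −0.10 (SE 0.17), and by 0.09 without PAN rat 1. Vldlr, a lipoprotein receptor, differed by 0.23 (SE 0.15), and by 0.14 without PAN rat 1. Fatty acid oxidation, 31 genes, had a median of −0.07 (−0.20 without pioglitazone rat 3, 0.02 without PAN rat 4 and −0.45 among title numbers of 15 or lower) with 2 genes at an unadjusted p under 0.05, both lower (2.62% of all genes): Cpt1b and Ech1, an auxiliary enzyme for unsaturated fatty acids. Ech1 averaged 77.2 ± 8.77 and 64.6 ± 0.92 scaled CPM with no overlap (−0.25, SE 0.08).

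Lipid synthesis gave a few small values in both directions. Among 24 cholesterol genes, 2 were higher at an unadjusted p under 0.05 (3.15% of all genes). One of them was Stard4, a cholesterol carrier, which averaged 23.4 ± 5.17 and 31 ± 6.37 scaled CPM (0.41, SE 0.18). Its difference was 0.10 among title numbers of 25 or higher. Among 19 genes of fatty acid synthesis and storage, Gpam (0.36, and 0.20 without pioglitazone rat 1) and Elovl5 (0.22) reached it as higher (3.15% of all genes). Elovl1 (−0.31) and Dgat1 (−0.21, and −0.13 without PAN rat 1) reached it as lower (2.62% of all genes). Elovl1 was −0.16 with a term for title number and −0.094 among title numbers of 25 or higher, where Gpam was 0.13. The medians of the 2 lists were 0.04 and −0.10, and neither kept its sign. The first was −0.07 without PAN rat 1 or without centring, and the second was 0.02 without pioglitazone rat 1.

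The striated muscle list held 12 measured genes of 40, with 3 above and 9 below 0 and a median of −0.71. Des, Ldb3 and Casq1 were lower at an unadjusted p under 0.05 (2.62% of all genes). Per rat, the list's mean was 0.33, 0.39, 0.16 and 0.37 with PAN and −0.99, −0.17, −0.39 and 0.30 with pioglitazone. Pioglitazone rat 4 lay among the PAN rats, and among rats with title numbers of 25 or higher, where it is the only pioglitazone rat, the median was 0.06. It was −0.47 without pioglitazone rat 1. Larger in size were −1.12, over the genes with a mean of at least 10 CPM, and −1.05, among title numbers of 15 or lower.

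Des (ENSRNOG00000019810), which encodes desmin, measured 825, 687, 508 and 599 scaled CPM in PAN rats and 204, 288, 245 and 473 in pioglitazone rats. The 2 groups came closest at 508 and 473 and did not overlap (difference −1.16, SE 0.34, limma adjusted p = 0.759, and −0.48 among title numbers of 25 or higher). Controls held 46.5 to 143, and PAN exceeded them by 2.95 (limma adjusted p = 0.000388). The pioglitazone rats also exceeded controls, by 1.78 (limma adjusted p = 0.0191).

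Ldb3 (ENSRNOG00000059166), a protein of the muscle Z-disc that binds actinin, gave a like picture with 41.4, 24.6, 16.5 and 30.2 scaled CPM against 10.8, 11.5, 9.48 and 15.1. Every pioglitazone rat was below every PAN rat and above every control, whose highest value was 2.42 (difference −1.21, SE 0.31, limma adjusted p = 0.759). Muscle gene promoters often hold a CArG box, the site of serum response factor. CArG, searched on both strands, was found in 2 of 23 windows of the measured striated muscle, mesangial and smooth muscle genes (8.70%), those of Ldb3 and Myl3, against 1.64% of all windows. The Ldb3 sequence upstream of the gene start (RefSeq, GRCr8, chr16:9924680-9924929, minus strand) is shown with the CArG box in capitals, since Ldb3 is the gene of this group with both a large difference and the motif.
Ldb3: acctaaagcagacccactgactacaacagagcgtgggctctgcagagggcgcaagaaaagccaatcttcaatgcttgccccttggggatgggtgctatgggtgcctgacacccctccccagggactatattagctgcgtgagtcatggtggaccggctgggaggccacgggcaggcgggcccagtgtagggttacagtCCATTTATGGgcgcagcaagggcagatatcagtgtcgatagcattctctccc

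Markers of mesangial and smooth muscle cells, 19 genes, had a median of −0.09, with 6 above and 13 below 0, and a mean of −0.30. The median ran from −0.27 (without PAN rat 4) to −0.012 (without pioglitazone rat 3) when single rats were left out, and was 0.032 among title numbers of 15 or lower and −0.25 among those of 25 or higher. Those at an unadjusted p under 0.05 were all lower (2.62% of all genes): Tagln, Des, Myl9 and Pdgfra. Tagln (ENSRNOG00000017628), an actin-binding protein of contractile cells, measured 329, 87.5, 61.1 and 80.1 scaled CPM with PAN and 33.1, 37.2, 40.6 and 43.8 with pioglitazone. The pioglitazone rats were close together and all below the PAN rats, with PAN rat 1 far above the rest. The difference of −1.50 (SE 0.43, limma adjusted p = 0.759) was −0.97 without PAN rat 1.

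Myl9, a regulatory light chain of smooth muscle myosin, averaged 56.2 ± 16 and 37.8 ± 6.42 scaled CPM (−0.54, SE 0.23), and −0.38 without PAN rat 1. Pdgfra, a growth factor receptor of stromal cells, averaged 13.6 ± 7.41 and 7.57 ± 3.84 (−0.82, and −0.50 without PAN rat 1). Rgs5, a pericyte regulator of G protein signals, went the other way by value, at 18.7, 15, 22.7 and 7.12 against 50.2, 16, 13.2 and 52.3. Only pioglitazone rats 1 and 4 were above the PAN range (0.90, SE 0.51, and 0.56 without PAN rat 4 or 0.59 without pioglitazone rat 4).

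Podocyte markers, 35 genes, had none at an unadjusted p under 0.05 in either direction. The median was −0.21, with 8 genes above and 27 below 0. Per rat the list's mean was 0.23, 0.10, 0.05 and 0.00 with PAN and −0.84, −0.16, 0.21 and 0.41 with pioglitazone, so the drug-treated rats spread on both sides of the PAN rats. The median was 0.12 without pioglitazone rat 1 and −0.38 without pioglitazone rat 4, and it was 0.33 among title numbers of 25 or higher and 0.10 with a term for title number. Nphs1, which encodes nephrin of the slit diaphragm, averaged 1539 ± 252 and 1616 ± 670 scaled CPM (−0.02, SE 0.44, and 0.27 without pioglitazone rat 1). Trpc6, a calcium channel of podocytes, averaged 7.17 ± 1.79 and 5.83 ± 1.11 (−0.28, SE 0.25, and from −0.45 without PAN rat 3 to −0.16 without PAN rat 1).

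The control group was itself uneven in the level of podocyte markers. Its list means were 0.40, −1.12, −1.22 and −0.63, so 3 of the 4 healthy rats were below every PAN rat. Nestin, a filament protein of podocytes encoded by Nes, measured 2399, 1917, 1838 and 1930 in PAN rats and 464, 916, 1354 and 2312 in pioglitazone rats (−0.90, SE 0.54). The difference was −0.50 without pioglitazone rat 1 and 0.18 among title numbers of 25 or higher. Nes was highest, within the pioglitazone group, in rat 4, where Des was also highest in that group. How far the level of podocyte markers enters the values of Des, Ldb3 and the other genes raised in PAN was not tested.

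**Figure D4:**
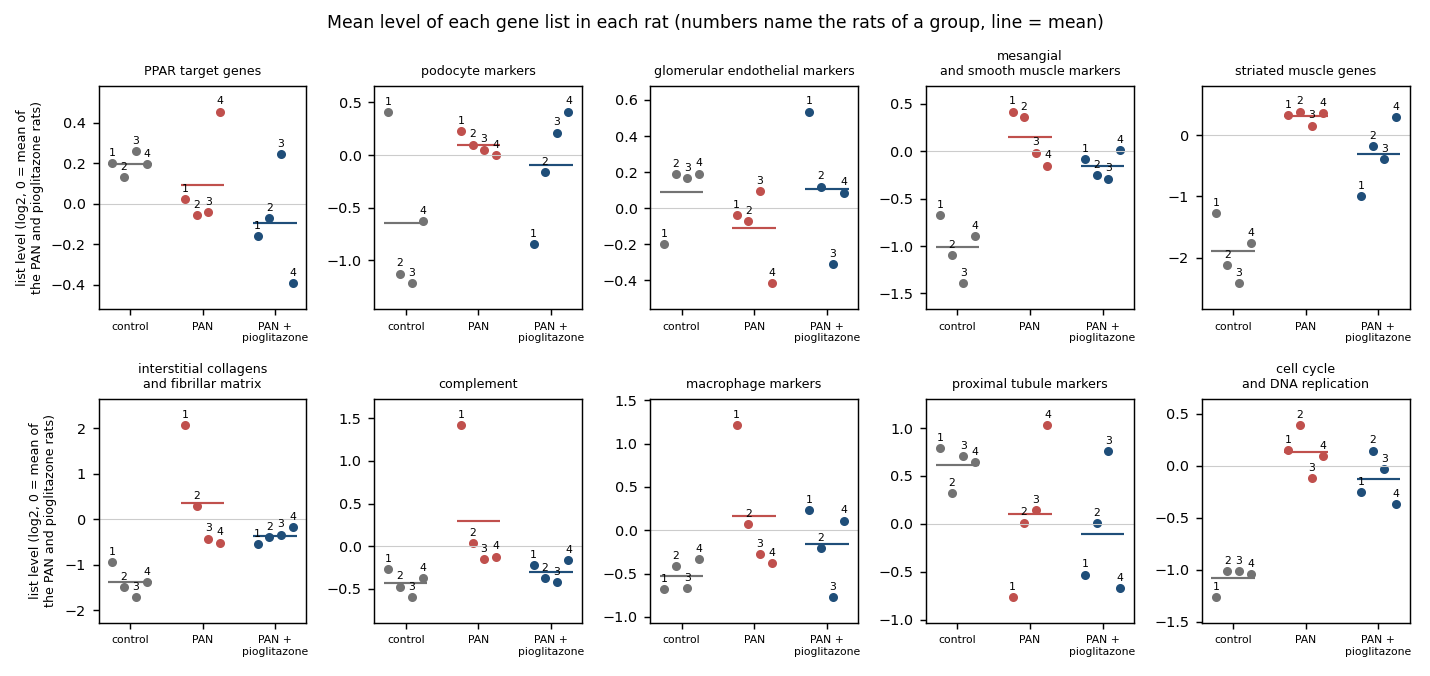
Mean level of 10 gene lists in each rat of the control, PAN and pioglitazone groups (log2, where 0 is the mean of the 8 PAN and pioglitazone rats); numbers name the rats and lines are group means. PAN rat 1 is far above the other rats for interstitial collagens (2.08), complement (1.42) and macrophage markers (1.22), and pioglitazone rat 1 is the lowest of the 8 for podocyte markers (−0.84) and striated muscle genes (−0.99).

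Glomerular endothelial markers were higher by median, at 0.37 over 22 genes (mean 0.22), with 18 above and 4 below 0. In the separate comparisons the median was 0.75 among rats with title numbers of 15 or lower and 0.24 among those of 25 or higher. Emcn and Ehd3 reached an unadjusted p under 0.05 as higher (3.15% of all genes), and Plvap and Sost as lower (2.62% of all genes). The list mean was −0.04, −0.07, 0.10 and −0.42 with PAN and 0.54, 0.12, −0.31 and 0.09 with pioglitazone, which overlapped, and the median without pioglitazone rat 1 was 0.20.

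Emcn, endomucin of the capillary surface, measured 508, 573, 688 and 420 scaled CPM with PAN and 1113, 767, 552 and 751 with pioglitazone (0.52, SE 0.23, and 0.34 without pioglitazone rat 1). Pioglitazone rat 3 lay within the PAN range. Ehd3, an endocytic protein enriched in glomerular endothelium, averaged 984 ± 134 and 1460 ± 582 (0.50, SE 0.23), and 0.26 without pioglitazone rat 1, at 2248 the highest of the 8. Ednrb, the endothelin B receptor, averaged 444 ± 126 and 768 ± 307 (0.76, SE 0.27). Pioglitazone rat 1 was again the highest, at 1212, and the difference without it was 0.51.

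Plvap, which builds the diaphragms of fenestrae and is low in mature glomerular capillaries, was opposite to the list. It measured 226, 216, 150 and 179 scaled CPM with PAN and 125, 166, 123 and 118 with pioglitazone. Only pioglitazone rat 2 overlapped the PAN rats (−0.53, SE 0.16). Controls were at 80.6 to 107, and PAN exceeded them by 1.08 (limma adjusted p = 0.00169). Sost, an inhibitor of Wnt signalling, measured 105, 26.1, 38.3 and 40.3 against 7.36, 14.3, 14.9 and 26.0, with a gap of under 1 scaled CPM between the groups (−1.67, SE 0.73).

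Growth factor and matrix signals contained further genes beyond the unadjusted threshold. Tgfbr2, a receptor of TGF-beta, averaged 609 ± 129 and 880 ± 260 scaled CPM (0.51, SE 0.23, and 0.33 without pioglitazone rat 1). Ltbp1, which tethers latent TGF-beta to matrix, averaged 415 ± 131 and 630 ± 234 (0.59, SE 0.27, and 0.36 without pioglitazone rat 1). Grem1, which blocks bone morphogenetic proteins, was low in both groups at 8.65, 3.44, 2.33 and 2.05 against 1.15, 1.56, 1.23 and 1.11, without overlap (−1.46, SE 0.51). The TGF-beta and BMP list of 35 genes had 3 higher (3.15% of all genes) and 2 lower (2.62% of all genes) at that threshold. Its median was 0.10 and its mean 0.00076, and the median was 0.022 without pioglitazone rat 1 and 0.036 without PAN rat 4. It was −0.01 without centring, 0.38 among title numbers of 15 or lower and −0.074 among those of 25 or higher.

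Met, the receptor of hepatocyte growth factor, measured 21.2, 24.9, 36.0 and 35.3 against 37.0, 39.3, 36.7 and 38.0 scaled CPM. The pioglitazone rats were narrow and just above the PAN rats (0.40, SE 0.14, and 0.26 without PAN rat 1), while controls stood higher at 51.8 to 56.8. Insulin and IGF signalling, 24 genes, had a median of 0.03 and 3 genes at an unadjusted p under 0.05, all higher (3.15% of all genes): Gsk3b (0.35), Foxo3 (0.38) and Pdpk1 (0.27, and 0.17 without PAN rat 1). When single rats were left out the list median ran from −0.0012 (PAN rat 3) to 0.067 (PAN rat 4). It was −0.076 without centring. Gsk3b, a kinase that insulin holds in check, measured 28.1, 35.0, 36.6 and 34.7 against 51.9, 40.3, 41.1 and 38.8 without overlap.

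Interstitial collagens and fibrillar matrix, 18 genes, had 1 above and 17 below 0, but this rested largely on PAN rat 1. The median was −0.53 with all rats, −0.15 without PAN rat 1 and 0.078 among title numbers of 15 or lower. The list mean of PAN rat 1 was 2.08, against 0.29, −0.42 and −0.51 in the other PAN rats and −0.55, −0.39, −0.33 and −0.18 in the pioglitazone rats. Col3a1, a fibrillar collagen of stroma, measured 672, 12.6, 6.29 and 3.21 with PAN and 2.81, 1.40, 2.38 and 5.38 with pioglitazone. The difference of −2.93 (SE 1.2) was −1.25 without PAN rat 1. Col1a1 differed by −0.42 with all rats (SE 0.75) and by 0.41 without PAN rat 1. Col4a1, a basement membrane collagen, averaged 2735 ± 645 and 2508 ± 460 (−0.11, SE 0.22, and 0.0041 without PAN rat 1), and the basement membrane list had no gene at an unadjusted p under 0.05.

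Complement and macrophage lists followed the same rat. Complement had a median of −0.46 over 21 genes, with C4b, C2 and C4a lower (2.62% of all genes) and Cd59 higher (3.15% of all genes) at an unadjusted p under 0.05. C4b measured 77.8, 3.44, 4.10 and 8.22 scaled CPM with PAN and 1.64, 3.58, 3.98 and 2.68 with pioglitazone, −1.79 with all rats and −0.79 without PAN rat 1. C4a and C4b are near-identical copies, so the reads given to each are uncertain. Cd59, which protects cells from the membrane attack complex, was the exception, at 106 ± 10.3 and 131 ± 11.3 (0.31, SE 0.14). All 23 macrophage markers were below 0, yet none reached an unadjusted p under 0.05, and the list mean of PAN rat 1 was 1.22 against −0.38 to 0.23 in 6 of the other 7 rats and −0.77 in pioglitazone rat 3. Among title numbers of 15 or lower, where PAN rat 4 is the only PAN rat, the macrophage median was 0.16. Chemokines, cytokines and NF-kB had a median of −0.22 over 25 genes and −0.01 without PAN rat 1, and it was 0.24 among title numbers of 15 or lower.

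Individual inflammatory genes included Il34, a ligand of the macrophage growth factor receptor, at 29.0 ± 12.6 and 17.0 ± 2.02 scaled CPM (−0.68, SE 0.21, and −0.42 without PAN rat 1). Tnfrsf12a, the receptor of the cytokine TWEAK, averaged 48.5 ± 11.9 and 27.4 ± 7.88 (−0.84, SE 0.33, and −0.41 among title numbers of 15 or lower).

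Cell cycle and DNA replication genes, 32 in all, had 4 above and 28 below 0 and a median of −0.36, which ran from −0.45 (without PAN rat 3) to −0.21 (without PAN rat 2) when single rats were left out. It was −0.66 with a term for title number and −0.63 among title numbers of 25 or higher, but −0.17 both among those of 15 or lower and over the genes with a mean of at least 10 CPM. Foxm1, a transcription factor of mitotic genes, measured 14.9, 15.2, 11.2 and 11.4 scaled CPM with PAN and 6.72, 10.2, 10.1 and 8.15 with pioglitazone (−0.59, SE 0.24). Kif20a, a kinesin of cell division, averaged 28.0 ± 2.35 and 21.1 ± 3.09 (−0.41, SE 0.17). Neither gene overlapped between the groups. Ccnd2, cyclin D2, was higher at 64.0 ± 12.6 and 93.2 ± 30.4 (0.50, SE 0.22, and 0.32 without pioglitazone rat 1). The list means were 0.15, 0.39, −0.12 and 0.09 with PAN, −0.26, 0.14, −0.03 and −0.37 with pioglitazone, and −1.26 to −1.01 in controls.

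Genes of the p53 response, 21 in all, had a median of −0.05 and 3 lower genes at an unadjusted p under 0.05 (2.62% of all genes): Ccng1 (−0.59, and −0.0099 among title numbers of 25 or higher), Aen (−0.30) and Phlda3 (−0.53). When single rats were left out the list median ran from −0.10 (PAN rat 3) to −0.017 (PAN rat 4). It was −0.15 without centring. Cdkn1a, the cell cycle inhibitor p21, measured 42.0, 63.1, 35.6 and 37.3 against 46.6, 37.2, 34.8 and 33.4, which overlapped (−0.20, SE 0.19, and −0.021 without PAN rat 2). In GQ-16 rats Cdkn1a averaged 17.9 ± 2.72 scaled CPM. The difference of pioglitazone from GQ-16 was 1.09 (limma adjusted p = 0.611).

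Sodium and water transport of the distal nephron gave 4 genes at an unadjusted p under 0.05 among 22, all lower (2.62% of all genes), although the median was −0.04. That median ran from −0.16 (without pioglitazone rat 3) to 0.10 (without PAN rat 4) when single rats were left out. Scnn1b and Scnn1g encode the β and γ subunits of the epithelial sodium channel, which takes up sodium in the collecting duct. Scnn1g measured 8.28, 5.57, 3.58 and 2.48 scaled CPM with PAN and 1.93, 1.67, 2.58 and 2.44 with pioglitazone, with overlap only at the lowest PAN rat (−1.08, SE 0.34, and −0.29 among title numbers of 15 or lower). Scnn1b averaged 7.10 ± 1.85 and 3.87 ± 1.34 (−0.90, SE 0.29, with −0.60 and −0.47 among title numbers of 15 or lower and of 25 or higher). Aqp2, the vasopressin-regulated water channel of the collecting duct, measured 30.1, 37.8, 18.7 and 19.4 against 9.80, 11.1, 12.4 and 19.1.

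Pioglitazone rat 4 alone reached the lower edge of the PAN rats for Aqp2 (−1.0, SE 0.29, and −0.54 among title numbers of 25 or higher). Hsd11b2, which keeps cortisol-like hormones from the mineralocorticoid receptor, averaged 42.2 ± 11.8 and 26.7 ± 7.05 (−0.65, SE 0.28, and −0.16 among title numbers of 15 or lower). These genes belong to tubule cells, and sieved glomeruli carry some tubule fragments. The list of distal nephron and collecting duct markers, which shares several of these genes, had a median of 0.08 (−0.071 without PAN rat 1, −0.025 without centring and −0.092 among title numbers of 25 or higher), with list means from −0.25 to 0.51 with PAN and −0.18 to 0.11 with pioglitazone. Umod, a marker of the thick ascending limb, averaged 306 ± 136 and 302 ± 22.9 (0.08, SE 0.33). The part of collecting duct content in these values was not tested. Sgk1, a kinase that sodium-retaining steroids induce, was higher by value, at 331, 464, 451 and 416 against 882, 591, 492 and 418 (0.47, SE 0.25). The difference was 0.27 without pioglitazone rat 1 and 0.027 among title numbers of 25 or higher.

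Lists that stood highest were those of abundant transcripts. All 13 mitochondrially encoded genes were above 0, with a median of 0.77, and none reached an unadjusted p under 0.05. Their list means were −1.03, −0.26, −0.10 and −0.13 with PAN and 1.06, 0.65, 0.20 and −0.38 with pioglitazone. Pioglitazone rat 4 lay within the PAN rats, and among title numbers of 25 or higher the median was 0.08. Over all 8 rats it was 0.36 with quantile normalization and 0.30 with a term for title number. The nuclear-encoded respiratory chain, 76 genes, had a median of −0.05. It ran from −0.16 (without PAN rat 1) to 0.073 (without PAN rat 4) when single rats were left out, and was −0.40 among title numbers of 15 or lower and −0.0033 among those of 25 or higher. Red blood cell markers, 9 genes, were all above 0 with none at that threshold, and PAN rat 1 was the lowest at −1.47. Its low red cell level accompanied its high stromal and macrophage levels, and the part of each in the other was not tested.

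Stress lists were small in effect. Heat shock proteins had a median of 0.15 over 16 genes, and 3 reached an unadjusted p under 0.05, all higher (3.15% of all genes). They were Hsp90ab1 (1013 ± 46.3 and 1336 ± 259 scaled CPM), Dnajb1 (46.1 ± 2.22 and 52.5 ± 5.84) and Hspb1 (102 ± 15.7 and 150 ± 38.0). The list median was 0.25 without pioglitazone rat 4 and 0.042 without centring. Among title numbers of 25 or higher it was −0.036, with Hsp90ab1 at −0.0096, Dnajb1 at −0.028 and Hspb1 at 0.039. Lysosome and autophagy, 33 genes, had a median of −0.13, with 26 below 0. The median was −0.059 without PAN rat 4, −0.064 among title numbers of 25 or higher and −0.24 without centring. Sqstm1, an autophagy receptor, measured 350, 354, 351 and 376 against 275, 332, 290 and 334 without overlap (−0.22, SE 0.08). Its difference was −0.073 among title numbers of 25 or higher. Ctsd, a lysosomal protease, was at 803 in PAN rat 1 and at 310 to 402 in the other 7 rats (−0.45, and −0.18 without PAN rat 1).

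GQ-16, the other PPARγ ligand of the series, gave values on the same PAN rats that are set side by side here and not correlated. No gene passed an adjusted p of 0.05 for GQ-16 against PAN, and none for pioglitazone against GQ-16, with limma. Sstr3 averaged 6.22 ± 2.22 scaled CPM with GQ-16 (−1.73 against PAN), Adamts14 8.59 ± 4.03 (−2.0), Ldb3 8.12 ± 3.41 (−1.82), Des 249 ± 88.4 (−1.43) and Tagln 29.1 ± 8.81 (−1.96). Aebp1 averaged 64.5 ± 6.26 with GQ-16, between the other injured groups. Aqp2 averaged 25 ± 8.39 and Hsd11b2 50.7 ± 19.2, closer to the PAN rats than to the pioglitazone rats, but pioglitazone minus GQ-16 had adjusted p-values of 0.68 for both in limma. The labels give no doses, so the drugs cannot be matched by dose.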

How the data were processed

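Glomerular RNA of 16 rats was sequenced as stranded poly(A) libraries. Per the file headers and values, the authors deposited log2 CPM values per Ensembl rat gene. The submitters' processing notes name HISAT2, Subread, featureCounts and limma and the build Rnor_6.0, without versions or roles. Values had the form of log2 CPM with 0.5 reads added, and 100% gave whole reads within 0.05 reads. All 13222 listed genes reached 2 CPM in at least 8 libraries. Each column was centred on its median. The main test was limma 3.58.1 (R 4.3.3), with a variance trend and 4 group means over all 16 rats. Genes named were the 12 per direction with the smallest p, no overlap and a mean of at least 5 CPM, in each described list the smallest p per direction and up to 4 at an unadjusted p under 0.05, and a set of standard markers. Cat, Pck1, Cyp4a2, Cyp4a3, G0s2 and Slc27a1 were named for their promoters. Some genes that the rule names are not reported here. The gene lists and the genes in them were chosen with earlier results of these data known. The fit was tested on simulated data. Promoters came from RefSeq (GRCr8), and 12007 genes matched its symbols. Library totals and shares were compared by exact permutation.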

Additional observations from a re-analysis of the deposited data

Results flagged for a closer look

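Within groups of 4 rats, 21 of 386 examined sets of values had 1 rat separated from the other three by a gap above Dixon's 95% limit, relative to the group's range, where chance flags about 1 in 20. Among list levels (log2, relative to the 8 rats), PAN rat 4 was high for PPAR target genes (0.46), the Nrf2 antioxidant response (0.26) and heat shock proteins (0.15). PAN rat 1 was high for complement (1.42), and pioglitazone rat 3 for endoplasmic reticulum stress (0.30).

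Among single genes, in log2 scaled CPM, PAN rat 1 was high for Pdk4 (4.96), Cxcl10 (5.10) and Ctsd (9.65) and low for Clock (6.10). PAN rat 4 was high for Cstb (6.01) and Sqstm1 (8.55) and low for Sparcl1 (4.97), Lims1 (5.58) and Lck (3.16). Pioglitazone rat 1 was high for Gpam (5.55), Nfatc3 (5.99), Lims1 (6.27) and Pla2r1 (4.60) and low for Ech1 (5.98). Pioglitazone rat 2 was low for Umod (8.07) and rat 3 for Sec23b (5.85).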

How the results depend on the processing

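The number of genes past an adjusted p of 0.05 was 0 with all 8 rats in each of 9 other settings of scaling, filter and test, and 0 to 1 when single rats were left out, where the 1 gene was Sstr3 without pioglitazone rat 4. Genes at an unadjusted p under 0.05 numbered 70 higher without centring, 219 lower with a mean of at least 10 CPM and 675 lower with a term for title number. Leaving out single rats gave 93 (without pioglitazone rat 1) to 932 (without pioglitazone rat 3) higher and 160 (without pioglitazone rat 1) to 491 (without pioglitazone rat 4) lower, with 249 higher and 214 lower without PAN rat 1. Medians of 18 of the 47 lists moved by more than the spread between rats within title numbers of 15 or lower, and of 9 within 25 or higher. The striated muscle (0.060) and mitochondrially encoded (0.077) lists were among the latter. Among the 9 lists treated as main results (PPAR targets, fatty acid oxidation, collagens, mesangial, complement, cell cycle, sodium transport, endothelial and podocyte) those that moved were, within 15 or lower, PPAR target genes (−0.50), fatty acid oxidation (−0.45) and glomerular endothelial markers (0.75), and within 25 or higher the cell cycle (−0.63) and podocyte markers (0.33). The cell cycle median was −0.66 with the title-number term. Within 15 or lower PAN rat 4 is the only PAN rat, and within 25 or higher pioglitazone rat 4 is the only pioglitazone rat. A shift with title number and a shift with these single rats cannot be told apart there. The cause of these shifts was not tested. Across all alternatives, 115 of 143 named genes and 10 of 47 lists kept their sign. Most of these genes were named for their values in this contrast. Those without overlap between the groups could not turn when rats were left out. The fit of only the 8 rats, the fit without a variance trend and the filter of 10 CPM kept each gene's difference. The counts therefore describe the genes and lists and test nothing.

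Of the 28 named genes that changed sign, 11 did so only within a range of title numbers: Acadsb, Psma4 and Cdkn1a within 15 or lower, or Pfkfb3, Hsp90ab1, Dnajb1, Mxi1, Clock, Map1lc3a, Nes and Akap12 within 25 or higher. The other 17 changed sign elsewhere, as follows. With the title-number term these were Ldhb (−0.092), Sdhc (−0.16), Dbp (0.015), Gatm (−0.38), Nphs1 (0.35), Synpo (0.19), Wt1 (0.12) and Col1a1 (0.18). Without centring these were Cs (−0.012) and Umod (−0.025). When single rats were left out (the rat in parentheses), ranges crossed 0 for Sdhc from −0.082 (PAN rat 1) to 0.30 (PAN rat 4), Dbp from −0.60 (pioglitazone rat 4) to 0.16 (pioglitazone rat 1) and Fn1 from −0.41 (PAN rat 3) to 0.56 (PAN rat 1). They did so too for Gatm from −0.39 (PAN rat 1) to 0.68 (PAN rat 4), Lck from −0.11 (PAN rat 4) to 0.29 (pioglitazone rat 3), Lipe from −0.050 (pioglitazone rat 1) to 0.38 (PAN rat 1) and Plin2 from −0.21 (pioglitazone rat 1) to 0.088 (PAN rat 1). The same held for Cpt1a from −0.14 (PAN rat 2) to 0.045 (PAN rat 1), Nphs1 from −0.23 (pioglitazone rat 4) to 0.27 (pioglitazone rat 1), Synpo from −0.50 (pioglitazone rat 4) to 0.13 (pioglitazone rat 1) and Wt1 from −0.39 (pioglitazone rat 4) to 0.16 (pioglitazone rat 1). Ranges on both sides of 0 were also found for Col1a1 from −1.01 (PAN rat 4) to 0.41 (PAN rat 1), Col4a1 from −0.23 (pioglitazone rat 1) to 0.0041 (PAN rat 1), Umod from −0.15 (PAN rat 1) to 0.35 (PAN rat 2) and Lrp2 from −0.60 (pioglitazone rat 3) to 0.085 (PAN rat 4). The voom fit on recovered reads was added after seeing the data. No paired analysis was possible because the labels give no numbers shared between the groups. Depth left a floor of 3 reads at 0.137 to 0.225 CPM.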
